A study of Mus musculus with 15 samples.

Results

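The interferon-stimulated genes of A20 cells were followed as a list of 42 mouse genes, among the 41388 genes counted in 15 RNA sequencing libraries. The list was chosen by name, with earlier results of these data known. A20 cells are a B-lymphoma line of BALB/c origin. The 5 lines, with 3 libraries each from separate passages, were the parental cells, labelled WT, and the *Foxp1* CRISPR clones E6.1 and E6.2, mutated in exon 6, and E7.1 and E7.2, mutated in exon 7. The labels name no interferon treatment of any line. Each clone was a single line expanded from a sorted cell, so the effect of the *Foxp1* mutation and that of clonal origin cannot be told apart within 1 clone.

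Type I interferons bind the Ifnar1 and Ifnar2 receptor chains, whose kinases Jak1 and Tyk2 activate a complex of Stat and Irf9 proteins. This complex binds the interferon-stimulated response element (ISRE) in the promoters of its target genes. Some target genes, such as *Irf7* and *Stat2*, feed back into the pathway, and others encode sensors of viral RNA or proteins that block viral replication. Many of them keep a low tonic level in unstimulated immune cells, and others are nearly silent until interferon is present.

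The libraries held 26328054 to 39181530 counts each. *Foxp1*, the edited gene, lay at 138 ± 32.7 CPM (counts scaled to library size and composition by TMM; mean ± SD, n = 3) in parental cells. The exon 6 clones had 104 ± 4.60 CPM (E6.1) and 106 ± 2.38 CPM (E6.2), and neither passed the test (adjusted p = 0.765 and 0.417). The exon 7 clones had 56.8 ± 13.0 CPM (E7.1) and 43.0 ± 8.19 CPM (E7.2), and both were called lower (adjusted p = 0.00688 and 0.00116). These are levels of RNA and not of protein. The paper reports a frameshift with an early stop codon in each of these clones. By its Western blots, exon 6 targeting removed full-length Foxp1 and the larger short form. Exon 7 targeting removed all forms normally seen in A20 cells. The 6 B-cell markers summed to between 718 and 1320 CPM in every library. Those of macrophages reached at most 8.10, of T cells 2.04, of plasmacytoid dendritic cells 0.827 and of fibroblasts 0.786 CPM, each as a sum. Replicate 3 of E6.2 and replicate 3 of E7.2 stood apart from the other libraries of their lines, with 16.2% and 10.3% of all tested genes over 2-fold from the mean of the other 2 libraries. Replicate 1 of E6.2 followed at 9.79%, and the other 12 libraries reached at most 4.24%. For several of the genes named below, the value without both of these replicate 3 libraries is also given. The counts of calls without them are given at the end.

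The list split into a part that was expressed and a part that was nearly silent, in parental cells and clones alike. All 42 genes were found in the count tables, 30 had enough counts to be tested and 12 did not. None of the 30 was called in any clone against parental cells, the threshold being an adjusted p of 0.05 over all 13904 genes tested. In 1 clone and direction, between 0.0575% and 1.01% of all genes were called. *Irf9* was called lower in the E7 clones than in the E6 clones, and *Ifit1* was called in the test of any difference among the 5 lines. Without a call, *Gbp3*, *Ddx58*, *Oasl1*, *Ifit2* and *Ifih1* lay below every parental library in all libraries of E6.2.

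Levels were compared between genes per kilobase of exon, as normalized CPM per kilobase averaged over the 3 parental libraries. *Bst2*, which encodes tetherin, a protein that holds budding virus at the cell surface, was the highest at 47.6. It was followed by *Irf2*, a factor that competes with Irf1 for the same sites, at 30.1. *Samhd1*, which degrades the nucleotides that reverse transcription needs, lay at 20.6 and the ubiquitin ligase *Trim25*, which acts on the RIG-I sensor, at 20.1. The neighbouring *Dtx3l* and *Parp9*, a ubiquitin ligase and its ADP-ribose partner, lay at 14.1 and 9.89. *Adar*, which edits double-stranded RNA, lay at 8.15 and *Stat2* at 7.83. These 8 were the most highly expressed of the list.

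Other genes of the list lay lower on the same scale. *Isg15*, a ubiquitin-like modifier, was at 2.32, *Irf7*, the factor that amplifies interferon production, at 0.745, and *Ifit1*, which binds foreign RNA ends, at 0.169 CPM per kilobase. *Rsad2* (viperin), *Rtp4* and *Cmpk2* had 0 counts in all 15 libraries, which allows up to 3 counts or between 0.0751 and 0.118 CPM depending on the library, counting error only. *Oas1a*, *Oas2* and *Ifi44* had at most 1 count in any library, *Oas3* and *Oasl2* at most 2, *Mx2* at most 3, and *Ifit3* and *Gbp7* at most 4. *Mx1* had at most 3 counts in 14 libraries and 113 in 1. Thus 4 of the 5 oligoadenylate synthetase genes of the list were at or near the limit of detection, and *Oasl1* was the only one of these tested. *Oas1b* and *Oas1c*, family members outside the list, were expressed at 0.925 to 2.66 and 1.71 to 3.33 CPM over the 15 libraries, and neither was called. Reads shared by close copies were left out of the counts, so levels of the *Ifit*, *Oas* and *Gbp* families are uncertain.

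**Figure D1:**
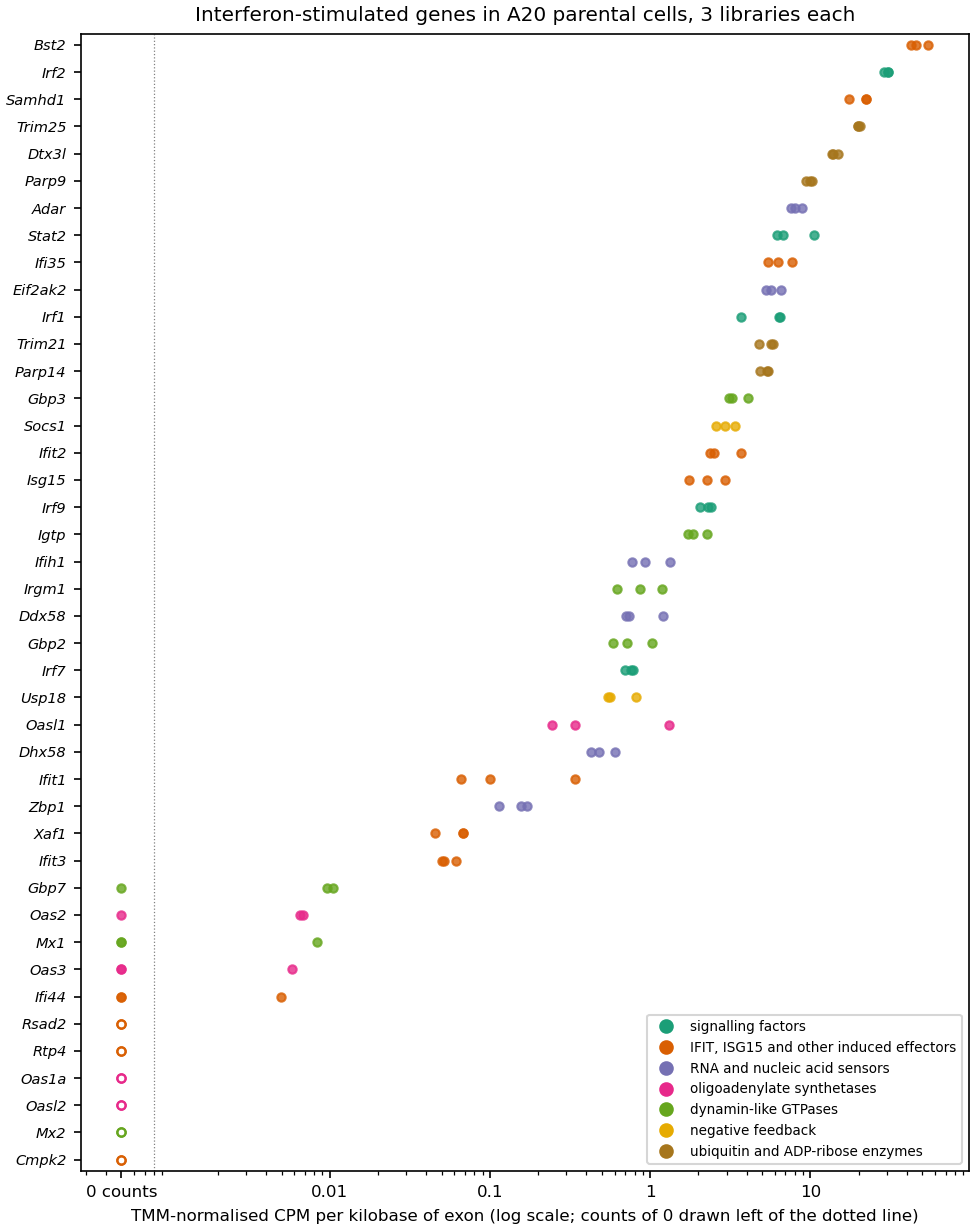
Level of all 42 interferon-stimulated genes in the 3 parental libraries, as TMM-normalized CPM per kilobase of exon on a log axis, 1 point per library, coloured by role. *Bst2* is highest at a mean of 47.6 and 6 genes have 0 counts in all 3 parental libraries, drawn as open circles.

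The ligands of the pathway were as silent. Of the 20 interferon genes in the tables, 15 had 0 counts in every library and none had enough counts to be tested. The highest count was 7, for *Ifnk* in replicate 1 of E6.1, and *Ifnb1* had 1 count in 1 library. The receptor and kinase genes were expressed. *Ifnar1* ranged from 45.3 to 62.6 CPM over the 15 libraries and *Ifnar2* from 19.2 to 72.4 CPM. *Jak1* ranged from 140 to 255 CPM and *Tyk2* from 9.58 to 15.5 CPM. Of the 15 receptor, kinase and induction genes listed, 14 were matched and tested, and 0 were called by edgeR in any clone or between the E7 and E6 clones. At an unadjusted p under 0.05 there were 3 in E7.2, 2 in each of the remaining clones and 1 between the E7 and E6 clones, against 6.71% to 20% of all genes in the clones and 30.3% between the E7 and E6 clones. DESeq2 called 1 in E7.1 (*Irf3*) and 1 between the E7 and E6 clones (*Jak1*). The share of all genes that DESeq2 called is not given here.

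Promoter sequences were taken from RefSeq on GRCm38.p6, from 250 bases before to 50 bases after each gene's start, and 33 of the 42 genes were in that table. The ISRE core, spelled GAAA, any 2 bases and GAAA again and searched on both strands, was found in 19 of the 33 (57.6%), against 3.99% of all 27025 genes with a promoter. It was present in 14 of the 25 tested genes with a promoter and in 5 of the 8 that were too low to test. The gamma-activated site TTCNNNGAA, which reads the same on both strands, was found in 11 of 33 (33.3%), against 9.55% of all genes. The forkhead motif GTAAACA was found in *Gbp3* and *Rsad2* only, 2 of 33 (6.06%), against 4.05% of all genes. A match describes the letters in this window and is not a measured binding site.

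The promoter of *Ifit1* is shown because it is the called gene that carries the ISRE core. Those of *Gbp3*, which shared the lowest adjusted p in E6.2 with *Samhd1*, and of *Rsad2*, which was silent, are shown because they hold both the ISRE core and the forkhead motif; these 2 were chosen after their values were seen. Each is written 5′ to 3′ on the gene's own strand, with the bases of the ISRE core in capitals. In all 3 the core lies on the opposite strand and is read as TTTC, 2 bases and TTTC. *Ifit1* (chr19:34640639-34640938, plus strand) has 2 cores that begin 104 and 85 bases before the start, *Gbp3* (chr3:142559794-142560093, plus strand) has 2 overlapping cores at 45 and 39 bases and a forkhead motif at 239 bases, and *Rsad2* (chr12:26456403-26456702, minus strand) has a core at 120 bases and a forkhead motif at 212 bases before the start.
Ifit1: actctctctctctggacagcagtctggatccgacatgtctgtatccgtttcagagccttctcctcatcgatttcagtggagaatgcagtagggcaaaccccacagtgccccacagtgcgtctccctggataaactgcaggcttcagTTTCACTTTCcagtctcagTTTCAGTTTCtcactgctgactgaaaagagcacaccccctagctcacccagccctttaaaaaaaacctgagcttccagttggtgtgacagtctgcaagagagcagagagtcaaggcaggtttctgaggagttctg
Gbp3: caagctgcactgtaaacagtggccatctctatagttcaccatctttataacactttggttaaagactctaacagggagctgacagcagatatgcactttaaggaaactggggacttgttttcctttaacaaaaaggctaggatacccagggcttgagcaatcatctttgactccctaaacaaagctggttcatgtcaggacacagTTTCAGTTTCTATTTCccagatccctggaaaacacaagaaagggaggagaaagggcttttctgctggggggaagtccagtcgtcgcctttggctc
Rsad2: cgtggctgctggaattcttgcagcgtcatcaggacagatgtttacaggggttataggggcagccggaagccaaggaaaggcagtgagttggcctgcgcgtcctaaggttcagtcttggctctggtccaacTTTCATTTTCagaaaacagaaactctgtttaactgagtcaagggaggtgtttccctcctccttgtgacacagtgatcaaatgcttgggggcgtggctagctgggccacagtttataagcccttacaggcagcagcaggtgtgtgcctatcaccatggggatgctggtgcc

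Each clone was compared with parental cells to ask whether the list moved in the *Foxp1* mutated clones. By edgeR, 0 of the 30 tested genes were called in E6.1, E6.2, E7.1 or E7.2. Over all genes tested, 0.0575% were called higher and 0.266% lower in E6.1, 0.165% and 1.01% in E6.2, 0.396% and 0.820% in E7.1, and 0.0863% and 0.209% in E7.2, so few calls were made anywhere. At an unadjusted p under 0.05, E6.1 had 0 genes of the list higher and 0 lower, against 2.87% and 3.84% of all genes. E6.2 had 1 higher and 9 lower, against 6.26% and 6.79%, and E7.1 had 0 and 3, against 9.94% and 10%. E7.2 had 1 and 2, against 5.98% and 7.34%. DESeq2 called *Samhd1*, *Gbp3* and *Ddx58* lower in E6.2, *Ddx58* lower in E7.1 and *Ifit1* lower in E7.2, and no gene of the list in E6.1. No share of all genes is given for DESeq2, so these calls cannot be set against one. The 95% interval of a log2 fold change had a median half-width of 0.65 to 0.66 over the list, so changes of that size were not excluded for a typical gene.

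The list's median log2 fold change, over 30 genes, came to 0.01 for E6.1, -0.31 for E6.2, 0.07 for E7.1 and -0.06 for E7.2. The medians over all 13904 genes were 0.00, 0.06, -0.02 and 0.00 in the same order. In E6.2, 22 of the 30 lay below parental cells, against 43.3% of all genes. In the other clones 14, 14 and 17 of the 30 lay below, for E6.1, E7.1 and E7.2.

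**Figure D2:**
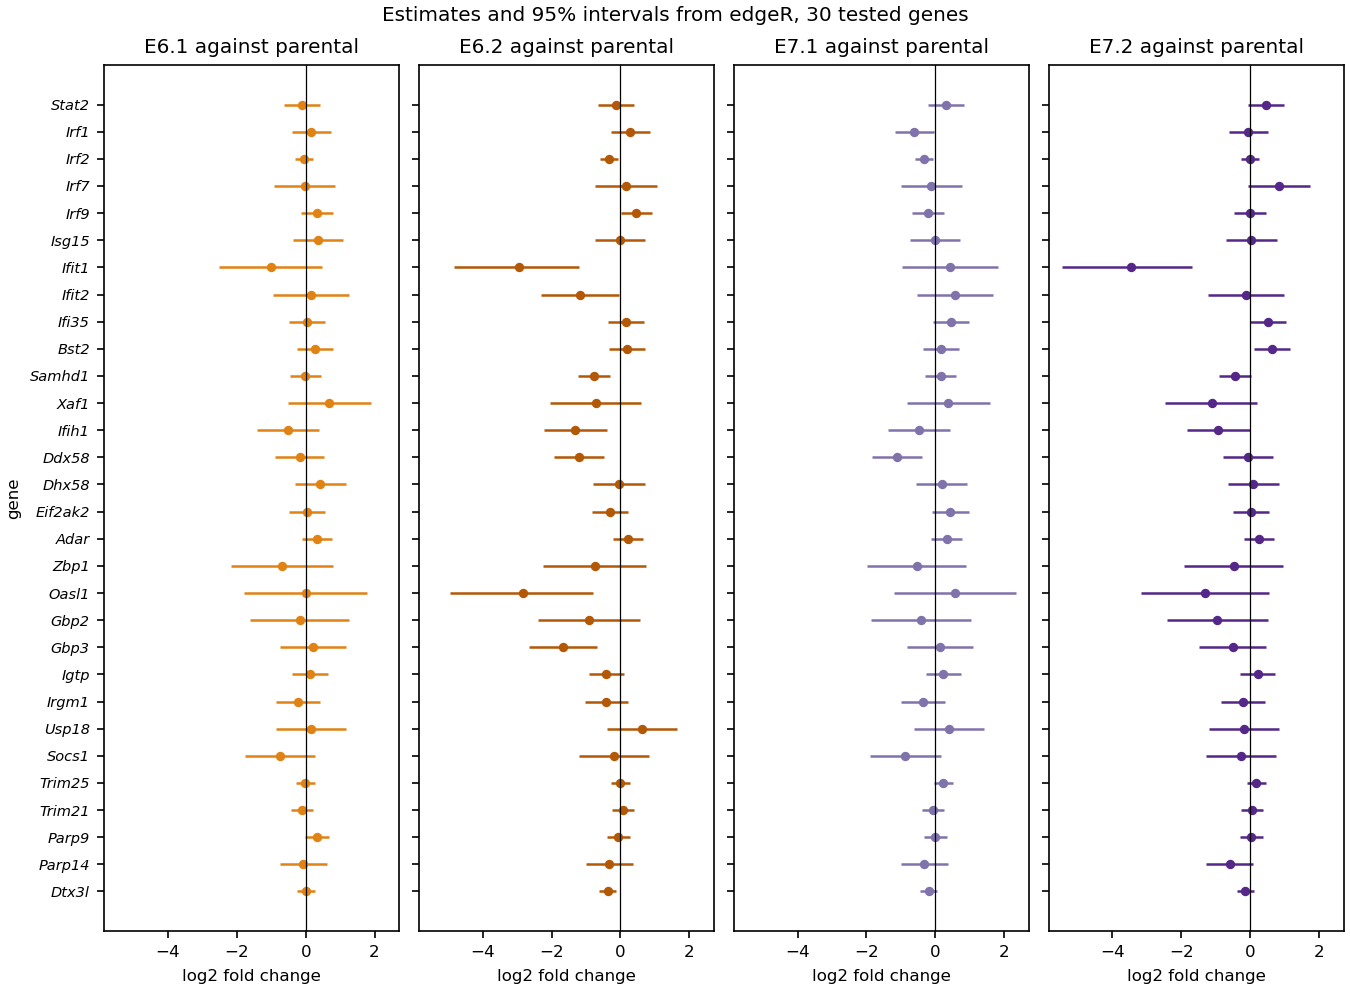
Log2 fold change (points) and 95% interval (lines) of each of the 30 tested genes in the 4 clones against parental cells, from edgeR, with genes grouped by role. The points of E6.2 lie to the left of 0 for 22 genes, and the widest intervals are those of *Oasl1* and *Ifit1*.

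*Ifit1* was the gene of the list that differed among the 5 lines (adjusted p = 0.0282), where 6.28% of all genes tested were called. Its counts were 30, 10 and 6 in the parental libraries, 5, 11 and 6 in E6.1, 2, 3 and 0 in E6.2, 14, 29 and 23 in E7.1, and 1, 2 and 1 in E7.2. All libraries of E6.2 and E7.2 thus lay below all of parental cells, E6.1 and E7.1. Set against a floor of 3 counts in each library, the mean of *Ifit1* was at least 4.51-fold lower in E6.2 than in parental cells. In E7.2 it was at least 5.28-fold lower, and the adjusted p values were 0.136 and 0.129. The parental mean leans on replicate 1, with 30 counts. Without that library the log2 fold change moved from -2.94 to -1.93 in E6.2 and from -3.45 to -2.43 in E7.2. Between the E7 clones the mean of *Ifit1* was at least 7.05-fold lower in E7.2 than in E7.1 (adjusted p = 0.0575), a difference that missed the threshold. Without replicate 3 of E6.2, the values in E7.2 passed it against parental cells and against E7.1 (adjusted p = 0.0456 and 0.0255), and without replicate 1 of parental cells that against E7.1 did (adjusted p = 0.028). The other 14 fits without 1 library gave no call against parental cells (adjusted p from 0.121 to 0.342). Against E7.1, 13 gave none (adjusted p from 0.0557 to 0.219). Without replicate 3 of E7.2 itself the adjusted p values were 0.225 and 0.219. Leaving out each library in turn, the call among the 5 lines was lost without replicate 1 or 3 of E6.1, 2 or 3 of E7.1, or 1 or 2 of E7.2, where the adjusted p lay between 0.0520 and 0.0753. It held in the other 9 such fits.

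The signalling factors did not move together. *Irf9*, the DNA-binding part of the interferon-activated complex, was measured at 11.0, 12.4 and 13.0 CPM in parental cells, 15.8, 14.3 and 15.8 in E6.1, 23.0, 15.8 and 11.4 in E6.2, 10.7, 10.7 and 10.2 in E7.1, and 10.5, 11.5 and 14.6 in E7.2. E6.1 lay above and E7.1 below all parental libraries, while E6.2 and E7.2 overlapped them. *Irf9* was lower in the E7 clones than in the E6 clones by a log2 fold change of -0.50 ± 0.15 (SE; adjusted p = 0.0480). In this comparison 5.85% of all genes were called lower and 6.21% higher. The call is close to the threshold. It was kept in the fits without replicate 3 of E6.2 or replicate 3 of E7.2, and lost in the other 13 fits that left out 1 library, with adjusted p values from 0.0598 to 0.119. Without both of these replicate 3 libraries the value was -0.68 (adjusted p = 0.00229), in a fit that called 17% of all genes lower. The p covers the spread between libraries only, since 2 clones per exon do not allow a test over clones, and *Irf9* overlaps *Rnf31* in the annotation, so that its count is uncertain.

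*Stat2*, the partner of Irf9, was measured at 46.7, 29.5 and 27.1 CPM in parental cells, 25.5, 39.8 and 31.0 in E6.1, 24.9, 25.1 and 44.4 in E6.2, 42.4, 40.7 and 45.4 in E7.1, and 46.5, 46.5 and 50.5 in E7.2. The parental libraries spanned nearly the whole range of the clones. Its log2 fold change was 0.48 in E7.2 against parental cells (adjusted p = 0.413) and 0.51 ± 0.17 (SE) in the E7 against the E6 clones (adjusted p = 0.0676). Without the 2 libraries that stood apart the second value was 0.66 and was called (adjusted p = 0.00709). In that fit 18% of all genes were called higher.

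*Irf7* was low and even in most libraries, at 2.36, 2.30 and 2.10 CPM in parental cells, 2.06, 2.52 and 2.03 in E6.1, 2.01, 1.94 and 3.58 in E6.2, 1.98, 2.48 and 1.79 in E7.1, and 2.03, 2.56 and 7.51 in E7.2. The highest values were those of the 2 replicate 3 libraries that stood apart. Its log2 fold change in E7.2, 0.84 (adjusted p = 0.401), fell to 0.04 without replicate 3 of E7.2. *Irf7* overlaps *Phrf1* in the annotation, so its count is uncertain. *Irf1*, a factor induced by interferon gamma, had a log2 fold change of -0.60 in E7.1 (adjusted p = 0.223) and of -0.55 in the E7 against the E6 clones (adjusted p = 0.0682). Without the 2 libraries that stood apart the latter was -0.62 and was called (adjusted p = 0.0175). In that fit 17% of all genes were called lower in the E7 clones. *Irf2* varied by at most 1.53-fold over the 15 libraries, with a log2 fold change of -0.32 in E6.2 (adjusted p = 0.291) and -0.34 in E7.1 (adjusted p = 0.145), where all libraries lay below the parental ones. Without the same 2 libraries the value in E7.1, -0.33, was called (adjusted p = 0.0244), where 7.39% of all genes were called lower.

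In E6.2, 10 of the 30 genes lay below parental cells in all libraries, against 8.61% of all genes, and 0 lay above, against 6.13%. They were *Irf2*, *Ifit1*, *Ifit2*, *Ifih1*, *Ddx58*, *Oasl1*, *Dtx3l*, *Gbp3*, *Igtp* and *Samhd1*, and the values of those described next were chosen after they were seen. With both libraries that stood apart left out, the count lower at an unadjusted p under 0.05 was again 9, the same 9 genes, against 10.1% of all genes. There were then 3 higher, *Adar*, *Irf9* and *Usp18*, against 11.1%. Over the 2 remaining libraries of E6.2, 14 genes lay below all parental libraries and 3 above, against 16.1% and 15.7% of all genes. *Gbp3* alone was then called lower, and *Irf9* alone higher, against 1.68% and 0.633% of all genes. The log2 fold change of *Irf9* in E6.2 was 0.46 in all libraries (adjusted p = 0.379) and 0.70 without these 2 (adjusted p = 0.0459). With 1 library left out, it ranged from 0.15 without replicate 1 of E6.2 to 0.68 without replicate 3 of E6.2. None of those fits called it (adjusted p from 0.0959 to 0.718).

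*Gbp3*, a guanylate-binding GTPase that attacks the vacuoles of intracellular pathogens, was measured at 10.04, 10.5 and 13.2 CPM in parental cells, 11.5, 13.7 and 14.1 in E6.1, 3.70, 4.90 and 1.98 in E6.2, 15.1, 11.1 and 10.5 in E7.1, and 9.98, 11.6 and 2.08 in E7.2. All E6.2 libraries and replicate 3 of E7.2 lay apart from the remaining 11. The log2 fold change in E6.2 was -1.67 ± 0.47 (SE) against parental cells (adjusted p = 0.134) and -1.89 ± 0.47 against E6.1 (adjusted p = 0.0719). Without the 2 libraries that stood apart these were -1.36 (adjusted p = 0.00423) and -1.58 (adjusted p = 0.00095). *Gbp3* overlaps *Gbp2b* in the annotation, so its count is uncertain.

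*Ddx58*, which encodes the RNA sensor RIG-I, was measured at 4.96, 5.18 and 8.47 CPM in parental cells, 5.52, 5.23 and 5.75 in E6.1, 2.44, 3.33 and 2.32 in E6.2, 1.71, 3.45 and 3.46 in E7.1, and 4.33, 4.61 and 8.95 in E7.2. All libraries of E6.2 and E7.1 thus lay below all of the other lines, without a call in either clone. The log2 fold change was -1.20 ± 0.34 (SE) in E6.2 (adjusted p = 0.146) and -1.11 ± 0.34 in E7.1 (adjusted p = 0.0971), and the difference between E7.2 and E7.1 was 1.05 (adjusted p = 0.237) and came to 0.65 without replicate 3 of E7.2. In E7.1 the call was made without replicate 3 of E7.2 (adjusted p = 0.0493) and without both libraries that stood apart (adjusted p = 0.0236). No other fit without 1 library made it, and the adjusted p reached 0.38. Leaving out replicate 3 of parental cells, the log2 fold change in E7.1 was -0.82. *Ifih1*, which encodes the related sensor MDA5, had a log2 fold change of -1.31 ± 0.43 for E6.2 and -0.92 ± 0.42 for E7.2 (adjusted p = 0.220 and 0.373). Without both libraries that stood apart these were -0.94 and -0.54 (adjusted p = 0.0955 and 0.281). Its lowest values, 1.504 and 1.892 CPM, were again those of replicate 3 of E6.2 and E7.2, and the range in parental cells was 6.25 to 10.9 CPM. *Dhx58*, the third member of this sensor family, ranged from 0.842 to 2.44 CPM over all libraries.

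*Samhd1* was measured at 159, 203 and 203 CPM in parental cells, 177, 188 and 196 in E6.1, 105, 141 and 84.8 in E6.2, 280, 161 and 188 in E7.1, and 153, 145 and 118 in E7.2. It was the most highly counted gene of the list and was lowest on average in E6.2, with a log2 fold change of -0.77 ± 0.21 (SE; adjusted p = 0.134). Without replicate 2 of E6.2 it was called (adjusted p = 0.0471). That was the only call in the 15 fits without 1 library, and the adjusted p reached 0.336. *Oasl1*, an OAS-like regulator of *Irf7* translation, was measured at 3.42, 0.881 and 0.641 CPM in parental cells and at 0.394, 0.242 and 0.0601 in E6.2, a log2 fold change of -2.84 ± 0.97 (adjusted p = 0.232). Replicate 1 of parental cells was the highest of all 15 libraries, and the parental and E6.2 libraries did not overlap. *Ifit2*, which lies beside *Ifit1* on chromosome 19, was measured at 14.5, 9.88 and 9.35 CPM in parental cells and at 5.79, 6.95 and 2.23 in E6.2, a log2 fold change of -1.17 ± 0.53 (adjusted p = 0.364), or -0.80 without both libraries that stood apart (adjusted p = 0.0669). *Dtx3l*, at 78.7 to 84.7 CPM in parental cells and 58.1 to 68.0 in E6.2, had a log2 fold change of -0.37 ± 0.12 (adjusted p = 0.202).

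**Figure D3:**
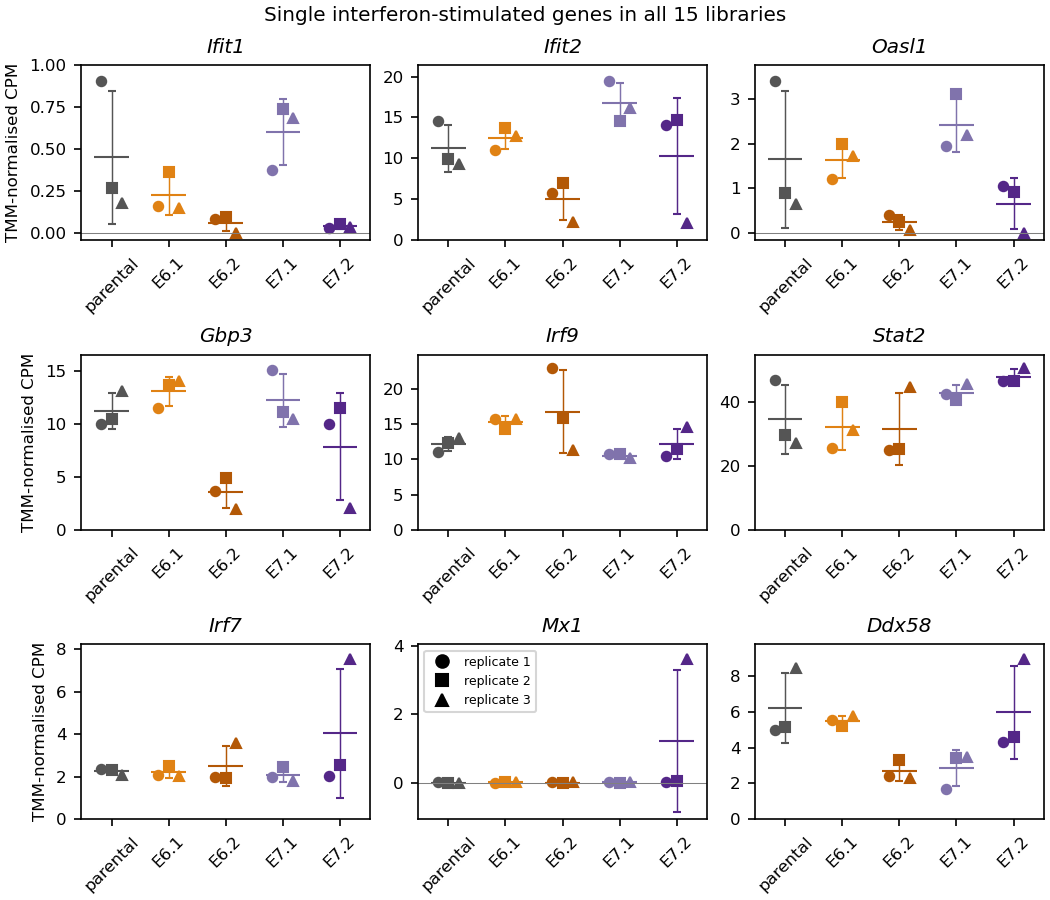
TMM-normalized CPM of 9 genes of the list in all 15 libraries, with a linear axis per gene, 1 point per library (shape gives the replicate number), and the mean and SD of each line (n = 3) as bars. *Ifit1* lies near 0 in E6.2 and E7.2, *Gbp3* is low in E6.2 and in replicate 3 of E7.2, and *Mx1* is above 0.1 CPM in replicate 3 of E7.2 only.

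In the other clones no comparable lean was seen. In E6.1, 4 genes lay above and 2 below all parental libraries, against 11.3% and 11.2% of all genes. In E7.1 there were 6 above and 6 below, against 16.4% and 15.6%. In E7.2 there were 2 above and 6 below, against 10.8% and 13.3%. *Bst2* in E7.2 had a log2 fold change of 0.63 ± 0.25 (adjusted p = 0.305), with parental libraries from 32.7 to 41.7 CPM and E7.2 libraries of 44.6, 52.0 and 72.5, and 0.43 (adjusted p = 0.220) without both libraries that stood apart. The feedback inhibitors *Socs1*, which blocks the kinases, and *Usp18*, which removes Isg15 and blocks the receptor, ranged from 1.29 to 5.55 and from 0.571 to 3.03 CPM. Among the ubiquitin and ADP-ribose enzymes, *Trim21*, *Trim25*, *Dtx3l* and *Parp9* each stayed within 2-fold over the 15 libraries, as did *Irf2*, while *Parp14* spanned 3.33-fold and the other 24 tested genes also spanned over 2-fold or had a library with at most 2 counts. *Parp9* and *Dtx3l* overlap each other, so their counts are uncertain where reads could come from either.

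Within E6.2 and E7.2, replicate 3 often held the lowest or highest value of a gene. Of the 30 genes, 13 were lowest of the 3 libraries in replicate 3 of both clones, against 24.9% of all genes. They included the sensors *Ifih1*, *Zbp1*, *Eif2ak2* and *Adar*, the GTPases *Gbp2* and *Gbp3*, and *Ifit2*, *Oasl1* and *Parp14*. Another 8 were highest in both, against 27.3% of all genes, and these were *Stat2*, *Irf1*, *Irf7*, *Socs1*, *Bst2*, *Ifi35*, *Trim21* and *Trim25*, a share near that of all genes. Opposite extremes were held by 6 genes, *Ddx58*, *Irf9*, *Irgm1* and *Usp18* (4 lowest in E6.2 and highest in E7.2, against 9.68% of all genes) and *Irf2* and *Isg15* (2 the other way, against 9.62%). In E7.2, replicate 3 was 11.3-fold below the mean of the other 2 libraries for *Gbp2*, 6.69-fold below for *Ifit2* and 5.17-fold below for *Gbp3*, and 3.27-fold above for *Irf7* and 3.16-fold above for *Socs1*. In E6.2 the same ratios were 5.34-fold below for *Gbp2*, 2.86-fold below for *Ifit2*, 2.17-fold below for *Gbp3*, 1.82-fold above for *Irf7* and 2.31-fold above for *Socs1*. The deviations of these 2 libraries from their line means correlated with r = 0.451 over all tested genes, which share 2 libraries and are not independent.

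These 2 libraries were not shallow, with 36707548 and 37754704 counts. Their 100 most highly counted genes held 25.3% and 34.3% of counts and mitochondrial genes 2.35% and 10.4%, where the other libraries ranged from 18.3% to 31.5% and from 0.848% to 7.28%. Their summed B-cell markers, 800 and 1271 CPM, lay within the range of the other libraries. Single markers left that range in both directions. *Pax5* was at 10.1 CPM (E6.2) and 16.8 CPM (E7.2), against 22.8 to 44.5 CPM in the other libraries. *Cd79b* (180 CPM) and *Ebf1* (10.2 CPM) were lowest of all 15 libraries in replicate 3 of E6.2. *Cd79a* (229 CPM), *Cd79b* (328 CPM) and *Cd22* (154 CPM) were highest in replicate 3 of E7.2. The part of these differences in the values of the list was not tested.

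**Figure D4:**
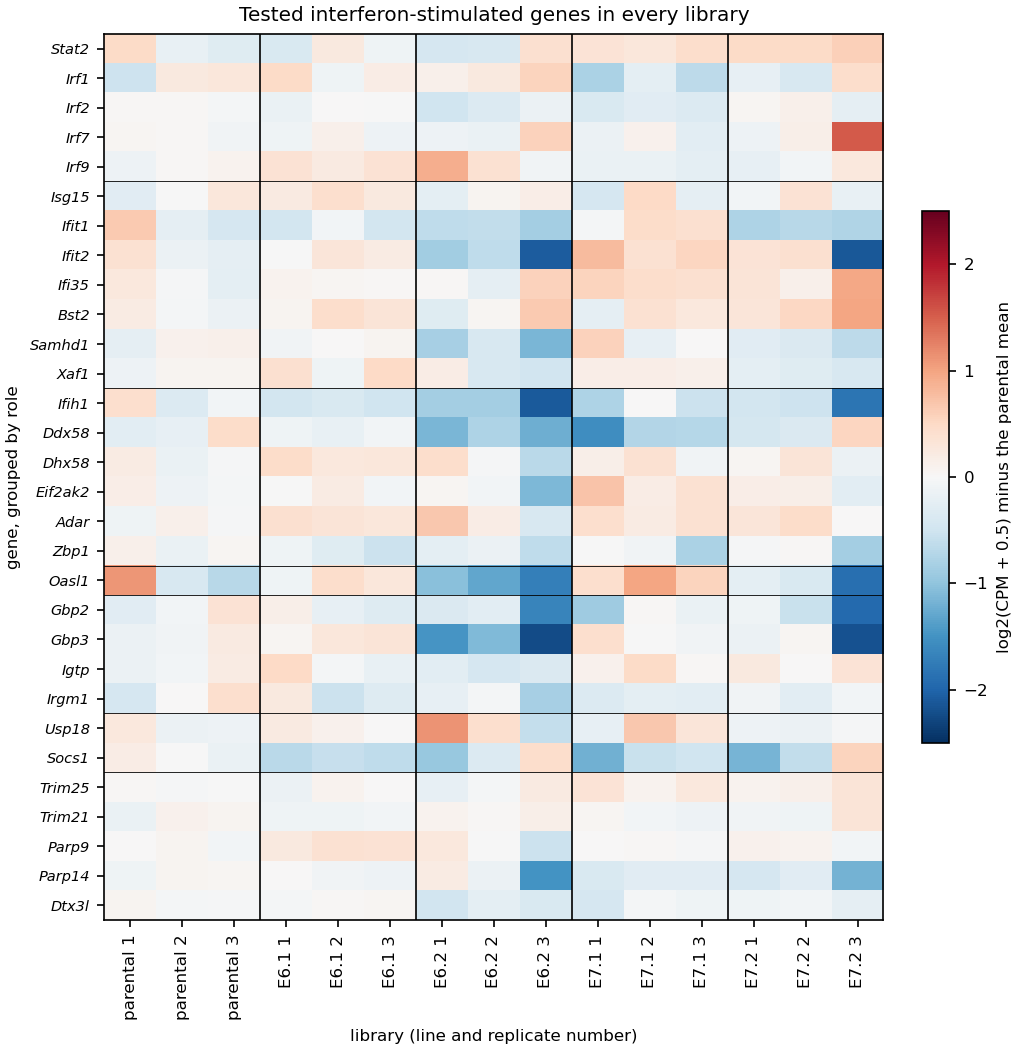
Difference of log2(CPM + 0.5) from the parental mean for each of the 30 tested genes (rows, grouped by role) in each of the 15 libraries (columns, grouped by line). Blue marks levels below and red above the parental mean; the darkest blue cells, among them *Ifit2*, *Gbp3* and *Ifih1*, are in replicate 3 of E6.2 and E7.2, and the darkest red is *Irf7* in replicate 3 of E7.2.

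*Mx1*, a GTPase that traps the nucleocapsids of influenza-like viruses, appeared in 1 library. Replicate 3 of E7.2 held 113 counts, or 3.62 CPM, and the other 14 libraries at most 3 counts. *Mx1* had counts in too few libraries to pass the filter of the fit reported, and 1 library is not a change in a clone. The other genes that are usually silent without interferon did not appear there, with *Rsad2*, *Rtp4* and *Cmpk2* at 0 counts in the same library. *Mx2*, its neighbour on chromosome 16, had at most 3 counts in any library.

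The 2 clones of an exon were also compared with each other. By edgeR, 0 of the 30 genes were called between E6.2 and E6.1, where 0.482% of all genes were called higher and 0.762% lower, and 0 between E7.2 and E7.1, where 0.367% and 0.223% were called. At an unadjusted p under 0.05, 0 lay higher and 11 lower in E6.2 than in E6.1, against 7.59% and 5.34% of all genes, and 3 lay higher and 4 lower in E7.2 than in E7.1, against 7.47% and 5.80%. DESeq2 called *Samhd1*, *Gbp3* and *Oasl1* lower in E6.2 than in E6.1, and *Ifit1* lower in E7.2 than in E7.1. Those calls too are given without the share of all genes.

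A wider list of 55 interferon-induced genes, of which 53 were in the tables and 35 were tested, gave a few calls. It too was chosen with earlier results of these data known. *Trim30a*, which encodes a ligase that damps innate signalling, was measured at 18.4, 21.0 and 21.6 CPM in parental cells, 21.5, 19.3 and 22.2 in E6.1, 13.9, 14.2 and 5.38 in E6.2, 19.4, 14.5 and 15.7 in E7.1, and 5.55, 5.33 and 4.62 in E7.2. It was lower in all E7.2 libraries than in any parental library, by a log2 fold change of -1.97 ± 0.28 (SE; adjusted p = 0.00596), a call kept in all 15 fits that left out 1 library. *Tor3a*, an interferon-induced AAA ATPase, was at 22.0, 23.6 and 24.9 CPM in parental cells and 12.8, 14.5 and 12.0 in E6.2, a log2 fold change of -0.84 ± 0.16 (adjusted p = 0.0140). *Epsti1* was at 14.9, 10.6 and 12.6 CPM in parental cells and 5.87, 6.62 and 6.47 in E6.2, a log2 fold change of -1.003 ± 0.224 (adjusted p = 0.0482), and its call was lost in 12 of the 15 fits, with adjusted p values up to 0.244. *Tor3a* was lost in 3 of the 15, with adjusted p values up to 0.0680. No other gene of the wider list was called in any clone. Thus 2 of the 35 were called lower in E6.2 and 1 in E7.2, against 1.01% and 0.209% of all genes.

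Between the E7 and the E6 clones, 3 genes of the wider list were called higher and 3 lower, of 35 tested, against 6.21% and 5.85% of all genes. *Ifi27*, which encodes a small membrane protein, fell by 2.34 on the log2 scale (adjusted p = 0.00881). It was measured at 1.09, 0.561 and 1.86 CPM in parental cells, 4.25, 4.22 and 2.60 in E6.1, 4.29, 2.45 and 0.722 in E6.2, 0.295, 0.613 and 0.477 in E7.1, and 1.37, 0.560 and 0.353 in E7.2. The E6 libraries other than replicate 3 of E6.2 lay above all others, and the call was kept in all 15 fits without 1 library. *Trim30a* fell by 0.73 (adjusted p = 0.0299) and the ADP-ribosyltransferase gene *Parp11* by 0.53 (adjusted p = 0.0183). *Epsti1* was higher by 0.66 (adjusted p = 0.0194), *Ube2l6*, which encodes the conjugating enzyme of Isg15, by 0.57 (adjusted p = 0.0483) and *Tor3a* by 0.38 (adjusted p = 0.0399). Their calls were lost in 8, 3, 4, 10 and 10 of the 15 fits without 1 library, for *Trim30a*, *Parp11*, *Epsti1*, *Ube2l6* and *Tor3a*, with adjusted p values up to 0.0768, 0.0595, 0.0633, 0.131 and 0.0936.

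Genes of the list that lie within 100 kb of each other formed 7 clusters with 17 members. In the *Ifit* cluster on chromosome 19, *Ifit2* (34550694 to 34576419) was expressed, *Ifit3* (34583531 to 34588731) was nearly silent with at most 4 counts, and *Ifit1* (34640871 to 34650009) was low and varied between lines. In the *Gbp* cluster on chromosome 3, *Gbp3* (142560052 to 142573209) was at 3.47 CPM per kilobase in parental cells, *Gbp2* (142620602 to 142638008) at 0.780 and *Gbp7* (142530338 to 142550083) at 0.00670. Neighbours thus differed widely in level. The *Parp14*, *Dtx3l* and *Parp9* genes on chromosome 16 were all expressed, at 5.23, 14.1 and 9.89 CPM per kilobase. *Rsad2* and *Cmpk2*, side by side on chromosome 12, were both at 0 counts. Positions are from the GRCm38 annotation.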

How the data were processed

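RNA of 5 A20 lines with 3 libraries each was sequenced. The authors deposited raw counts of read pairs per gene. Per the file headers, featureCounts 1.5.0 assigned pairs to a GRCm38 annotation that included spike-ins. It ignored strand and dropped multi-mapping pairs and pairs on more than 1 gene. Alignment was by HISAT, whose version is not given in the sources used here. The 92 spike-ins had 0 counts and were left out. Groups and replicate numbers came from the labels.

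Counts were tested in R 4.3.3 with edgeR 4.0.16 (filterByExpr, TMM, glmQLFit and glmQLFTest with defaults, line as the only factor, all 15 libraries). Adjustment was Benjamini-Hochberg over 13904 genes, with calls at an adjusted p under 0.05. Levels are TMM-normalized CPM, and CPM per kilobase divides by exon length. A fold against libraries with 3 counts or fewer is a lower bound against a floor of 3 counts per library. On simulated counts of the same 13904 genes, in the comparison of E6.1 with parental cells, 87 of 90 changes of 4-fold (96.7%) and 56 of 110 of 2-fold (50.9%) were recovered among genes of at least 1 CPM, and 14 unchanged genes were called. In that simulation, 0 genes were called in the 3 unchanged clones. Its counts were drawn from a common mean per gene and the trended dispersion. It had no spread particular to a gene and no libraries that stood apart. The shares recovered need not hold for the real counts.

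Alternatives were DESeq2's size factors, no filter on low counts, legacy = FALSE in edgeR, DESeq2 1.42.0, a replicate block, a fit of only the libraries compared, the removal of both replicate 3 libraries of E6.2 and E7.2 together, and of each library in turn. The members and lists, and these alternatives, were chosen with earlier results of these data known. Values in every library are given for called members and for *Stat2*, *Irf9* and *Irf7*. Promoters are shown for called members that hold the ISRE core. The other genes named with values were chosen after these were seen.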

Additional observations from a re-analysis of the deposited data

Results flagged for a closer look

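*Irf9* was the 1 gene of the list that differed between the E7 and the E6 clones by the test of that difference (log2 fold change -0.50, adjusted p = 0.0480 from edgeR). All libraries of E6.1 lay above and all of E7.1 below the parental libraries for this gene, a difference of 4.75 CPM between these clones that was not tested as a pair.

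*Ifit2* lay above all parental libraries in E7.1 and below them in E6.2, by 11.7 CPM between the means of these clones, which was not tested as a pair. *Xaf1*, an apoptosis-linked effector, lay above all parental libraries in E7.1 and below them in E7.2, by 0.243 CPM between the means, and this pair did not pass the test (log2 fold change -1.49, adjusted p = 0.325 from edgeR).

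Of the genes too low to test, *Mx1* held 113 counts in replicate 3 of E7.2, against at most 3 in any other library, and *Gbp7* held 4 counts in replicate 2 of E7.2, against a limit of 3 that a count of 0 allows.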

How the results depend on the processing

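The counts of called genes of the list were small and moved with the method. Shares of all genes stand beside them below only for the fit without both libraries that stood apart. Counts by the other methods cannot be read as more or fewer than over all genes. Without a filter on low counts, 1 gene was called lower in E6.2 (*Gbp3*), 1 higher in E7.2 (*Mx1*, on the counts of 1 library), 1 lower in E6.2 than in E6.1, 1 lower in E7.2 than in E7.1, 0 lower in the E7 than in the E6 clones, and 6 among the 5 lines. DESeq2 called 3 lower in E6.2, 1 lower in E7.1, 1 lower in E7.2, 1 higher and 2 lower in the E7 than in the E6 clones, 3 lower in E6.2 than in E6.1, 1 lower in E7.2 than in E7.1, and 6 among the 5 lines. The newer edgeR method called 1 gene lower in E7.2 than in E7.1 (*Ifit1*). With DESeq2's size factors, or with only the libraries compared, 0 were lower in the E7 than in the E6 clones. Without both libraries that stood apart (replicate 3 of E6.2, replicate 3 of E7.2), 1 gene was called higher and 1 lower in E6.2 (0.633% and 1.68% of all genes), 3 higher and 2 lower in E7.1 (8.46% and 7.39%), 5 higher and 3 lower in the E7 than in the E6 clones (18% and 17%), 2 lower in E6.2 than in E6.1 (1.76%), and 8 among the 5 lines (30.1%). Those of E7.1 were *Eif2ak2*, *Ifi35* and *Ifit2* higher and *Ddx58* and *Irf2* lower. Those of the E7 against the E6 clones were *Gbp3*, *Ifi35*, *Ifit2*, *Stat2* and *Trim25* higher and *Irf1*, *Irf9* and *Parp14* lower. The cause of these shifts was not tested.

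With each library left out in turn, the counts ranged from 0 to 1 lower in each clone but E6.1, 0 to 3 higher and 0 to 2 lower in the E7 against the E6 clones, 0 to 1 lower between the 2 clones of either exon, and 0 to 7 among the 5 lines. The count of 7 was that without replicate 3 of E7.2. Shares of all genes are not given for these fits. In every other clone comparison the counts stayed at 0. Leaving out 1 library moved the median log2 fold change of the list to between -0.03 and 0.04 in E6.1, -0.39 and -0.24 in E6.2, -0.03 and 0.11 in E7.1, and -0.10 and 0.01 in E7.2. No single-gene log2 fold change named in the report reversed.

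With a replicate block, *Irf9* was not called in the E7 against the E6 clones (adjusted p = 0.0704), which left 0 genes lower there, and *Ifit1* stayed called among the 5 lines. Whether replicate numbers pair the libraries was examined between parental and clone libraries only. Deviations with the same number correlated with mean r of -0.0278 for E6.1, 0.108 for E6.2, -0.00356 for E7.1 and 0.125 for E7.2. Not every pair was over 0.1, and those of E7.2 lay between 0.0706 and 0.163. Pairs between clones were not examined as a set, and replicate 3 of E6.2 and that of E7.2 correlated with r = 0.451.

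Depth limits what can be said of the 12 genes too low to test, and 3 libraries per line limit changes near 2-fold. Larger changes were also missed where libraries varied widely, as for *Oasl1* in E6.2 (log2 fold change -2.84, adjusted p = 0.232 from edgeR).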
